A study of Homo sapiens with 6 samples.

Results

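Metallothioneins are small proteins rich in cysteine that bind zinc and copper, and zinc transporters move zinc across membranes. The 10 genes described here are 7 metallothionein genes (MT1E, MT1F, MT1G, MT1H, MT1M, MT1X and MT2A), the zinc exporter gene SLC30A1 and the zinc importer genes SLC39A4 and SLC39A5. They were chosen by symbol, as all probe sets annotated to exactly 1 of these symbols, which gave 17 of the 54675 probe sets and 10 of 19775 genes. The cells are Caco-2, a human colorectal adenocarcinoma line that forms a polarised layer with features of small-intestinal enterocytes, grown for 14 days on a porous support. Each support was then set over THP-1 cells, a human monocytic leukaemia line given macrophage-like properties with phorbol myristate acetate for 4 days, in plates with 12 wells. RNA of the Caco-2 layer was measured on Affymetrix arrays at 0, 1, 3, 6, 24 and 48 h of this coculture, with 1 array at each time, no replicate, and Caco-2 cells kept alone for the same times were not analysed here. Every group is the same cell line, so variation between donors is outside these data.

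In the absorptive cell, zinc enters from the gut lumen through SLC39A4 at the apical membrane and leaves to the blood through SLC30A1 at the basolateral membrane. Metallothioneins buffer zinc inside the cell. Their genes and SLC30A1 are textbook targets of MTF1, a transcription factor that senses zinc and binds metal response elements, while the surface level of SLC39A4 protein is known to fall when zinc is plentiful. Metallothionein genes also respond to glucocorticoids, to interleukin-6 and to oxidants in many tissues.

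The clearest difference among the 10 genes was that of SLC39A4, whose signal went down with every successive time and was 4.61-fold lower at 48 h than at 0 h. SLC39A5 stayed within 1.25-fold of 0 h in its brighter probe set. The 2 bright probe sets of SLC30A1 pointed in opposite directions from 3 h on, so the direction of that gene was not settled. The metallothionein probe sets were dim throughout, none above a signal of 63.4, and 26 of their 66 readings lay above the floor of 16.2. With that floor no metallothionein gene was called at least 2-fold higher. With a lower floor MT1G and MT1X were called higher at some times, and MT1H and MT1X were called lower at some.

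Signals are MAS5 intensities, 1 value per probe set and array. The floor was 16.2, the median of all values pooled over the arrays; lower signals were set to it before log2 ratios to 0 h were taken, so a ratio against a signal at the floor is a lower bound. The rule for calling a difference was 2-fold or more with the brighter of both arrays above the floor. With 1 array per time no test was possible, and no p-value is given. As a stand-in for error, a robust SD of the log2 ratio of 1 probe set was taken over the whole table, by level of signal. This SD is that of the difference between 2 probe sets of a gene at the same level, divided by the square root of 2. Over the 5 later times it was 0.14 to 0.26 for signals above 1024 and 0.37 to 0.48 at 128 to 256. It was 0.54 to 0.66 at 32 to 64 and 0.40 to 0.43 at 16.2 to 32. In that lowest range the floor limits how large a ratio can be, which narrows the SD. The SD leaves out the variation between cultures. The arrays can tell neither fewer cells making a transcript from less of it per cell, nor a change in total RNA.

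Median signals of the 6 arrays ran from 15.3 to 16.7, and 12006 to 12280 genes exceeded the floor. For ACTB, the signal of the 3' control probe set divided by that of the 5' one, a ratio that rises as RNA is degraded, came to 51.2, 27.7, 22.9, 17.99, 27.9 and 37.0 in order of time. All 11 intestinal epithelial markers with a probe set of their own, of 12 listed, were above the floor on every array, with summed signals of 21497 to 24863. Of 12 monocyte and macrophage markers with a probe set, of 14 listed, 6 to 9 were above it, with summed signals of 553 to 878. That sum was 878, 743, 553, 634, 690 and 688 in order of time, of which LYZ and AIF1 made up the larger share on each array. PTPRC and SPI1, which define leukocytes and the myeloid lineage, were at or under the floor on all 6 arrays.

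Of the 10 genes, the numbers at least 2-fold lower at 1, 3, 6, 24 and 48 h were 2, 2, 1, 2 and 1, with none higher. Among the 14623 genes above the floor on at least 1 array, the shares past 2-fold in either direction at those times were 3.34%, 6.62%, 10.7%, 10.1% and 9.96%. Among only 10 genes a single one moves the share by as much as these percentages, and nothing is read from the counts as such. The genes were MT1F and MT2A at 1 and 3 h, MT2A at 6 h, MT1F and SLC39A4 at 24 h, and SLC39A4 at 48 h.

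**Figure D1:**
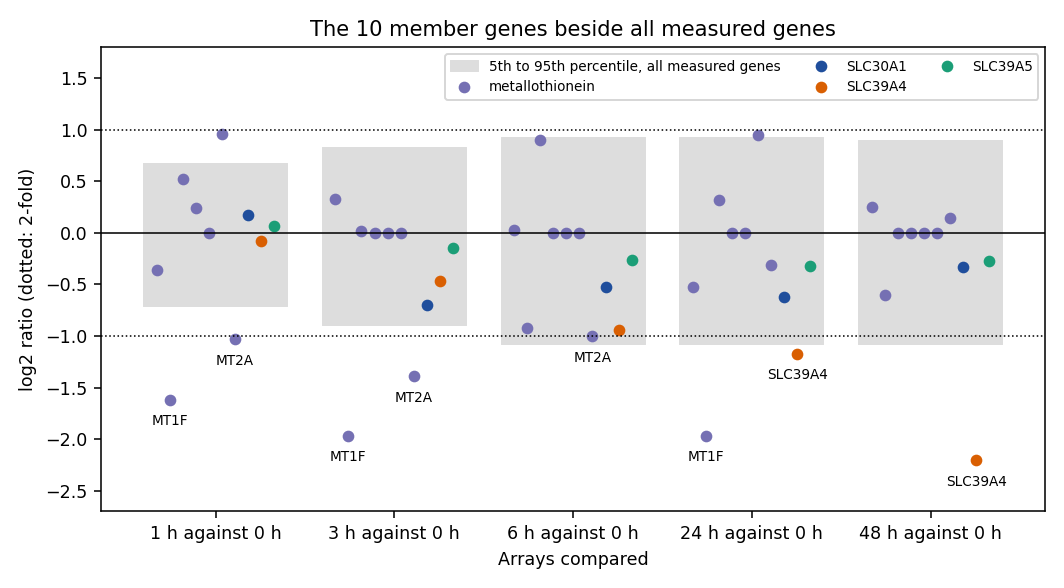
Log2 ratio of each of the 10 genes at each coculture time against 0 h (vertical axis), with 1 point per gene and the time along the horizontal axis; grey boxes span the 5th to 95th percentile of all measured genes and dotted lines mark 2-fold. Named points lie past 2-fold, all of them below 0, and SLC39A4 at 48 h is the lowest at -2.21.

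The metallothionein genes lie side by side on chromosome 16, in a cluster that RefSeq orders from MT4 and MT3 through MT2A, MT1E and MT1M to MT1F, MT1G, MT1H and MT1X. Their coding sequences are closely alike, and 9 of the 11 probe sets have names that end in _x_at, which the manufacturer gives to sets that may bind transcripts of more than 1 gene. Signals of these paralogs therefore cannot be assigned to a single gene with certainty. RefSeq promoter windows, from 250 bases before to 50 bases after the gene start, were found for MT2A, MT1H, MT1X, SLC30A1 and SLC39A5, 5 of the 10 genes. They are given here because the metal response element is the shared feature of the textbook targets of MTF1. Capitals mark each match, on either strand, to TGCACNC or TGCGCNC, the core of that element. The windows are those of assembly GRCh38.p14, each printed 5′ to 3′ on the strand of its gene, at chr16:56608334-56608633 (plus strand) for MT2A, chr16:56669564-56669863 (plus) for MT1H, chr16:56682220-56682519 (plus) for MT1X and chr1:211579112-211579411 (minus) for SLC30A1.
MT2A: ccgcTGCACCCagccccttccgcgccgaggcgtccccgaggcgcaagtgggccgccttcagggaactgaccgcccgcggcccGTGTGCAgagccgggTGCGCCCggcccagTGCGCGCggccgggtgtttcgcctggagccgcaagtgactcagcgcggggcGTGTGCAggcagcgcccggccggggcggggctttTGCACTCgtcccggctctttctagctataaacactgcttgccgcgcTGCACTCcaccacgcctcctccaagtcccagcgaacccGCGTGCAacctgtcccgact
MT1H: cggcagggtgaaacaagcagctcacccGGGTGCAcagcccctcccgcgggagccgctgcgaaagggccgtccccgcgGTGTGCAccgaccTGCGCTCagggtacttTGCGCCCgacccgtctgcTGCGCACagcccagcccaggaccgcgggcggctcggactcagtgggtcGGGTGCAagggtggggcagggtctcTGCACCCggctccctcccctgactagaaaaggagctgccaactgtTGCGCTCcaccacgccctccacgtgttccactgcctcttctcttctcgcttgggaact
MT1X: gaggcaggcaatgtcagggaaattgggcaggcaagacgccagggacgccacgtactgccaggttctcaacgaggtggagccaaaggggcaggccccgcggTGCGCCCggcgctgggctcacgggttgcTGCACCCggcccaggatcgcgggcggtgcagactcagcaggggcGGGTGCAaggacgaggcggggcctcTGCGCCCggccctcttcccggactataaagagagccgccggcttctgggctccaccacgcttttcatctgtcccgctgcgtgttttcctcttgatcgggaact
SLC30A1: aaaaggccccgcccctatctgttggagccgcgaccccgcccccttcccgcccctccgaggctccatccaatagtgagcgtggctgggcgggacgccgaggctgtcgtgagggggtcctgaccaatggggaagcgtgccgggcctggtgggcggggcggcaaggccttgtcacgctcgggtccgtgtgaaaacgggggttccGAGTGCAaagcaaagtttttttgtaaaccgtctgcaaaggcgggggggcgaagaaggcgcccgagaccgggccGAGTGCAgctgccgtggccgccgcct
MT2A and MT1H had 8 matches each, MT1X had 4 and SLC30A1 had 2, and no matches overlapped. Of 35116 promoter windows in the same table, 29.6% held at least 1 match, 8.60% at least 2, 0.601% at least 4 and 0.0199%, 7 windows, at least 8. Both windows of SLC39A5, on chromosome 12, were searched too, and held 0 and 1 match. A match describes letters in the window and is no evidence of binding in these cells.

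These metallothionein genes were dim on every array. At 0, 1, 3, 6, 24 and 48 h, 3, 6, 3, 6, 4 and 4 of their 11 probe sets were above the floor, and the brightest signal on an array lay between 29.3 at 3 h and 63.4 at 0 h. The probe set of MT2A (212185_x_at) alone was above the floor on all 6 arrays, 7 were above it on some, and 3 on none. The last group held the single probe set of MT1M (217546_at), at 0.376 to 3.06, a second set of MT1F (217165_x_at), at 1.86 to 14.7, and a second set of MT1G (210472_at), at 1.22 to 12.3. With ratios taken above the floor, the median log2 ratio of the 7 genes was 0 at each of the 5 later times. All measured genes had medians between -0.04 and 0 at the same times. A median of 0 here comes from genes held at the floor on both arrays and does not show that their transcripts were constant.

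**Figure D2:**
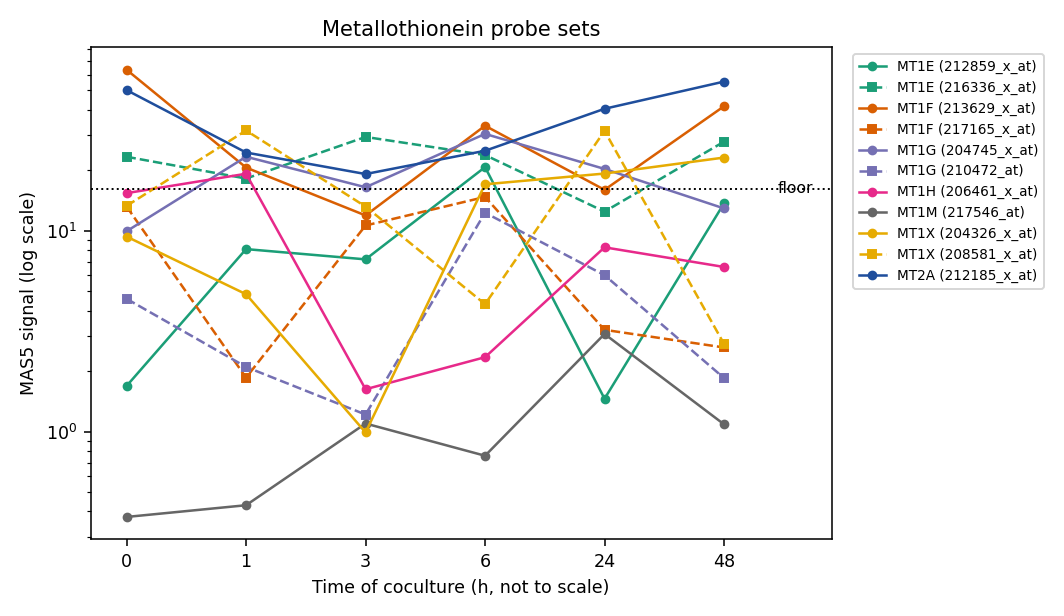
MAS5 signal (vertical axis, log scale) of the 11 metallothionein probe sets at each time of coculture (horizontal axis, not to scale), with 1 line per probe set, 1 array per time and the floor of 16.2 as a dotted line. The lines cross the floor repeatedly, and none exceeds 63.4.

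MT2A, a metallothionein expressed in most human tissues, had signals of 50.2, 24.5, 19.2, 25.02, 40.5 and 55.3 at 0, 1, 3, 6, 24 and 48 h. The 1, 3 and 6 h arrays were thus low, and the 24 and 48 h arrays near 0 h. Relative to 0 h it was lower at 1, 3 and 6 h by folds of 2.05, 2.62 and 2.01. In log2 terms these differences were -1.03, -1.39 and -1.004, against spreads between probe sets of 0.54, 0.60 and 0.56 at signals of 32 to 64. In order of level, the signals at 3, 1 and 6 h did not differ from their neighbours beyond that spread, nor did those at 24, 0 and 48 h, while 24 h stood above 6 h by 0.69 against a spread of 0.51. At 6 h, where the fold lay at the threshold, the call was lost under quantile normalization and with a common median. With a pseudocount in place of the floor MT2A lost its calls at 1, 3 and 6 h (-0.70, -0.91 and -0.69). With the floor raised to 37.5 every call of MT2A and MT1F was lost, as had to happen. Their highest signals, 55.3 and 63.4, lay within 2-fold of that floor.

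MT1F had signals of 63.4, 20.6, 11.9, 33.3, 15.99 and 41.7 at 0, 1, 3, 6, 24 and 48 h in its brighter probe set (213629_x_at). The 0 h array was the highest, and the 3 and 24 h arrays lay under the floor. It lay below 0 h by 3.07-fold at 1 h and by at least 3.91-fold at both 3 and 24 h. At 6 and 48 h the folds were 1.90 and 1.52. The other probe set stayed under the floor at all times and gives no second reading of these differences. With the median over both sets every call of MT1F was lost, with log2 ratios of -0.81, -0.98 and -0.98 at 1, 3 and 24 h. The floor held the other set at a log2 ratio of 0, so these medians had to be smaller. Among all genes whose brighter array had a signal of 32 to 64, as for MT1F and MT2A, the shares at least 2-fold lower at 1, 3, 6 and 24 h were 6.64%, 11.0%, 15.2% and 13.2%. Against the 1 h array neither could be called 2-fold lower, since their signals at 1 h (20.6 for MT1F and 24.5 for MT2A) lay within 2-fold of the floor. At 48 h both were higher than at 1 h, MT1F by a log2 ratio of 1.01 and MT2A by 1.17. The 0 h array also had the highest ACTB ratio and the highest sum of macrophage markers (51.2 and 878). On the later arrays these were 17.99 to 37.0 and 553 to 743. The same ratio for GAPDH was 4.69 at 0 h and 3.54 to 4.72 later, highest at 24 h. Their part in these differences was not tested.

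MT1G had signals of 9.94, 23.4, 16.5, 30.4, 20.3 and 12.9 in its brighter set (204745_x_at) at 0, 1, 3, 6, 24 and 48 h. It was highest at 6 h, by at least 1.87-fold over 0 h, a log2 difference of 0.90 against a spread of 0.43. The 0 h signal lay under the floor, so this fold is a lower bound. The spread at this level is narrowed by the floor, so it is no full gauge of error here. With the floor at 6.38, MT1G was called higher at 1, 6 and 24 h, with log2 ratios of 1.23, 1.61 and 1.03. MT1H had 15.4, 19.2, 1.62, 2.35, 8.27 and 6.602 (206461_x_at) and was above the floor at 1 h only. With the floor at 6.38, MT1H was called lower at 3, 6 and 48 h, with log2 ratios of -1.27, -1.27 and -1.22. MT1E had 23.4, 18.2, 29.3, 23.8, 12.5 and 27.8 (216336_x_at), with no time 2-fold from 0 h. Its other set (212859_x_at) passed the floor only at 6 h, with 20.7.

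The probe sets of MT1X did not follow each other. The set 208581_x_at had signals of 13.3, 31.6, 13.2, 4.31, 31.4 and 2.73 at 0, 1, 3, 6, 24 and 48 h, highest at 1 and 24 h and lowest at 48 h. The set 204326_x_at had 9.35, 4.83, 0.9898, 17.04, 19.3 and 23.2, highest at 48 h. Neither passed 2-fold over the floor, the nearest being 208581_x_at at 1 h with at least 1.95-fold. Its log2 difference of 0.96 stood against a spread of 0.42, likewise narrowed by the floor. With the floor at 6.38, MT1X by this set was called higher at 1 and 24 h (1.25 and 1.24) and lower at 6 and 48 h (-1.06 at both). Further genes of the family gave no more signal. Of 9 listed metallothionein genes and pseudogenes outside the 7, 3 had a probe set of their own, and MT1HL1 alone was above the floor, with 20.8 at 24 h. MT3, the form known from brain, and MT4, known from squamous epithelium, were under the floor on every array.

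SLC30A1 encodes the exporter ZnT1 of the plasma membrane and was bright in 2 of its 3 probe sets. In 212907_at its signals at 0, 1, 3, 6, 24 and 48 h were 1398, 1573, 861, 971, 907 and 1111. This set was high at 0 and 1 h and low from 3 h on. The set 228181_at had 213, 323, 286, 337, 309.5 and 426 at the same times, lowest at 0 h and highest at 48 h. The third set, 242716_at, had 8.29, 17.2, 24.7, 15.4, 3.13 and 18.6, around the floor.

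By 212907_at the log2 ratio to 0 h was 0.17, -0.70, -0.53, -0.62 and -0.33 at 1, 3, 6, 24 and 48 h. By 228181_at it was 0.60, 0.43, 0.66, 0.54 and 0.999. Neither set passed 2-fold, though 228181_at at 48 h lay just under it at 1.998-fold. The sets agreed in sign at 1 h and were opposite at each later time; the differences between them were 0.43 at 1 h and then 1.12, 1.19, 1.16 and 1.33. In the 4633 genes for which 2 or more probe sets exceeded the floor on all arrays, the 2 brightest sets differed by a median of 0.31 to 0.42. Differences at least as large as that of SLC30A1 were found in 37.1% of them at 1 h, and at the later times in 7.19%, 7.51%, 7.66% and 6.76%. The spread between probe sets was 0.15 at 3 h at the signal of 212907_at and 0.31 at that of 228181_at, so each set differed from 0 h there by more than its spread. In order of level, the signals of 212907_at at 3, 24, 6 and 48 h were each within the spread of the next. The steps to 0 h and to 1 h were beyond it. Signals further apart in level could differ more, as 48 h did from 24 h (0.29 against a spread of 0.11). For 228181_at each step in level between the 3, 24, 1 and 6 h signals was within the spread. Yet 6 h stood above 3 h by 0.24 against 0.22. The 0 h signal stood below these and 48 h just above.

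**Figure D3:**
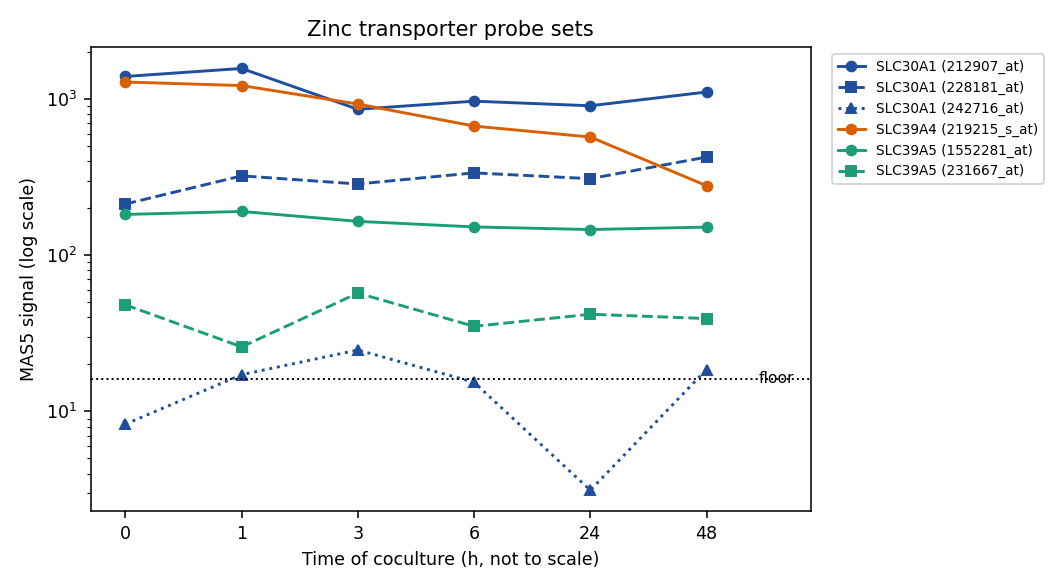
MAS5 signal (vertical axis, log scale) of the 6 probe sets of SLC30A1, SLC39A4 and SLC39A5 at each time of coculture (horizontal axis, not to scale), 1 array per time, with the floor of 16.2 as a dotted line. SLC39A4 declines to 279 at 48 h, the brighter SLC39A5 set stays level, and the 2 upper SLC30A1 sets diverge after 1 h.

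Genes whose course lay nearest to that of SLC30A1 in 212907_at were of varied kinds. Likeness was the root mean square difference of log2 ratios to 0 h over the 5 later times, among 10442 other genes above the floor on all arrays. The nearest were SLC33A2 (0.087), RASL11B (0.099), NHSL1 (0.11), the long non-coding RNA LINC00938 (0.12) and the mitotic kinase gene NEK2 (0.13). NEK2 had signals of 115, 107, 72.1, 81.2, 70.3 and 93.3 over the 6 times. These neighbours belong to that probe set and not to 228181_at.

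SLC39A4 encodes ZIP4, the importer of dietary zinc whose loss causes the zinc deficiency disorder acrodermatitis enteropathica. Its single probe set, 219215_s_at, had signals of 1288, 1222, 931, 673, 572 and 279 at 0, 1, 3, 6, 24 and 48 h. Each array was lower than the one before it. Relative to 0 h, the fold by which it was lower at the 5 later times was 1.05, 1.38, 1.91, 2.25 and 4.61. The steps were uneven, since the step between 24 and 48 h (2.05-fold) was the largest of the 5.

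At 48 h the log2 ratio of SLC39A4 was -2.21, against a spread between probe sets of 0.26 at that signal. At 24 h it was -1.17 against 0.21, and at 6 h -0.94 against 0.20. The signals at 0 and 1 h did not differ beyond the spread (0.08 against 0.14), nor did those at 6 and 24 h (0.23 against 0.28), and the other neighbouring times did. Among all measured genes, 6.14% were at least 2-fold lower at 48 h, and 50 of 14623, or 0.342%, were lower by at least as much as SLC39A4. Among genes whose brighter array was above 1024, as it was here, 4.99% and 5.35% were at least 2-fold lower at 24 and 48 h. Of 10446 genes above the floor on all arrays, 205, or 1.96%, were lower at each of the 5 steps, 114, or 1.09%, were so and at least 2-fold lower at 48 h, and 17, or 0.163%, were so and as much lower at 48 h as SLC39A4 or more. One macrophage marker, AIF1, did go down over the same times, with signals of 360.0, 229, 111, 153, 96.5 and 43.01 and an 8.37-fold lower level at 48 h. Its second brightest set, 213095_x_at, had 229, 107, 90.6, 88.5, 52.2 and 31.8. A dimmer set, 209901_x_at, had 123, 83.99, 26.9, 37.6, 35.03 and 5.87, and 207823_s_at was under the floor on all arrays. The part of AIF1 in the course of SLC39A4 was not tested. Over the whole list of 12 markers, AIF1 alone was 2-fold lower at 48 h, and the median log2 ratio over the 10 measured was -0.14. SLC39A4 has no second probe set, and the suffix _s_at of its own marks one that may bind more than 1 transcript.

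By the same measure, the gene nearest in course to SLC39A4 was MLN, which encodes the gut hormone motilin, with a root mean square difference of 0.11 and signals of 218, 187, 156, 126, 87.9 and 48.1 over the 6 times. FABP1, the fatty acid carrier of enterocytes and hepatocytes, followed at 0.17, with a signal of 478 at 48 h, against 2086 at 0 h. TFF3, a trefoil peptide of goblet cells, was at 0.24, with 143 at 48 h, against 505 at 0 h. The other two were HELQ, a DNA helicase (0.24), and BTBD2 (0.26), both dim by 48 h with signals of 26.7 and 30.5. The likeness is a description over 5 ratios that share the 0 h array.

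**Figure D4:**
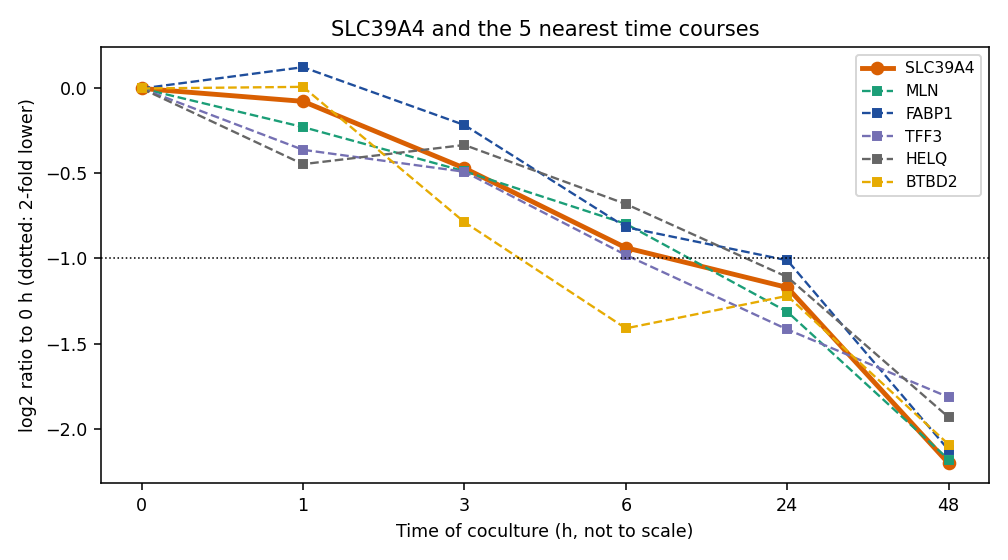
Log2 ratio to 0 h (vertical axis) at each time of coculture (horizontal axis, not to scale) for SLC39A4 and for the 5 genes with the smallest root mean square difference from it, 1 line per gene and 1 array per time; the dotted line marks 2-fold lower. All 6 lie between -1.82 and -2.21 at 48 h.

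Not all epithelial markers moved with SLC39A4. Of the 11 measured, FABP1 and SI, the disaccharidase sucrase-isomaltase, were at least 2-fold lower at 48 h, by 4.37-fold and 4.50-fold. Beside them, 6.14% of all measured genes were at least 2-fold lower at 48 h. The median log2 ratio of the 11 was 0.15. SI had signals of 556, 528, 626, 638, 291 and 123 at 0, 1, 3, 6, 24 and 48 h, so unlike SLC39A4 it was not lower at 3 and 6 h. KRT20, a keratin found in differentiated gut epithelium, reached 836 at 24 h, against 207 at 0 h, 4.04-fold higher. CDX2, an intestinal transcription factor, was 3.51-fold lower at 3 h, with signals of 89.2, 103, 25.4, 36.9, 53.5 and 75.03 over the 6 times.

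SLC39A5 encodes ZIP5, a zinc importer of the basolateral membrane in enterocytes. Its brighter probe set, 1552281_at, had signals of 183, 191, 165, 152, 146 and 152 at 0, 1, 3, 6, 24 and 48 h. All 6 arrays lay within 1.31-fold of each other, and no neighbours in order of level differed beyond the spread of 0.26 to 0.41. The second set, 231667_at, had 48.2, 25.9, 57.2, 35.1, 41.9 and 39.3. Its log2 ratio of -0.89 at 1 h, against a spread of 0.54, was the only one beyond that spread, and the brighter set had 0.06 there.

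The rest of the zinc transporter families showed few differences. Of 12 further importers of the SLC39 family, 11 were measured. At least 2-fold lower was 1 of them at each time, and 1 was higher at both 6 and 24 h. Among all measured genes the shares lower at the 5 times were 1.44%, 3.52%, 6.45%, 6.14% and 6.14%, and the shares higher were 1.90%, 3.10%, 4.23%, 3.95% and 3.82%. The medians of the 11 importers ran from -0.23 at 6 h to 0.02 at 3 h. SLC39A1, a broadly expressed importer of the plasma membrane, had signals of 42.2, 44.2, 45.7, 90.1, 101 and 58.6 at the 6 times, 2.40-fold higher at 24 h than at 0 h. SLC39A11 had 212, 180.4, 162, 129, 87.99 and 135 and was 2.41-fold lower at 24 h. SLC39A2 lay around the floor, at 2.85 to 22.6 on the later arrays, against 43.5 at 0 h. SLC39A3 stayed within 1.60-fold of 0 h.

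SLC39A14, the importer ZIP14 that inflammation induces in liver, had signals of 3353, 3340.3, 3612, 3181, 3778 and 3797 at the 6 times in its brightest set and a log2 ratio of 0.18 at 48 h. Its dimmer set 1555434_a_at had 23.3, 39.7, 60.1, 43.3, 53.8 and 37.9, higher than at 0 h at each later time. The set 1555433_at was under the floor up to 6 h and had 19.1 and 23.6 at 24 and 48 h. SLC39A14 was named after its values were seen. Of 10 further exporters, which are the remaining SLC30 genes and TMEM163, 8 were measured. None passed 2-fold before 48 h. At 48 h 1 was at least 2-fold lower, beside 6.14% of all measured genes. That was TMEM163, which carries zinc out of cells, with a signal of 33.9 at 48 h, against 85.03 at 0 h, in 223503_at, 2.51-fold lower. In its other set, 1552626_a_at, the signal was 39.1 at 48 h, against 62.8 at 0 h, under 2-fold. SLC30A10, known as a manganese exporter, was lower by a log2 ratio of -0.69 at 24 h. SLC30A6, of the Golgi, was lowest at 6 h (-0.75) in 226161_at. Its dimmer set 243643_x_at was highest at that time, with 115, against 74.4 at 0 h. SLC30A2, of secretory vesicles, was near the floor at 6.19 to 29.9. The median of the exporters ran from -0.16 at 3 h to 0.03 at 24 h.

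**Figure D5:**
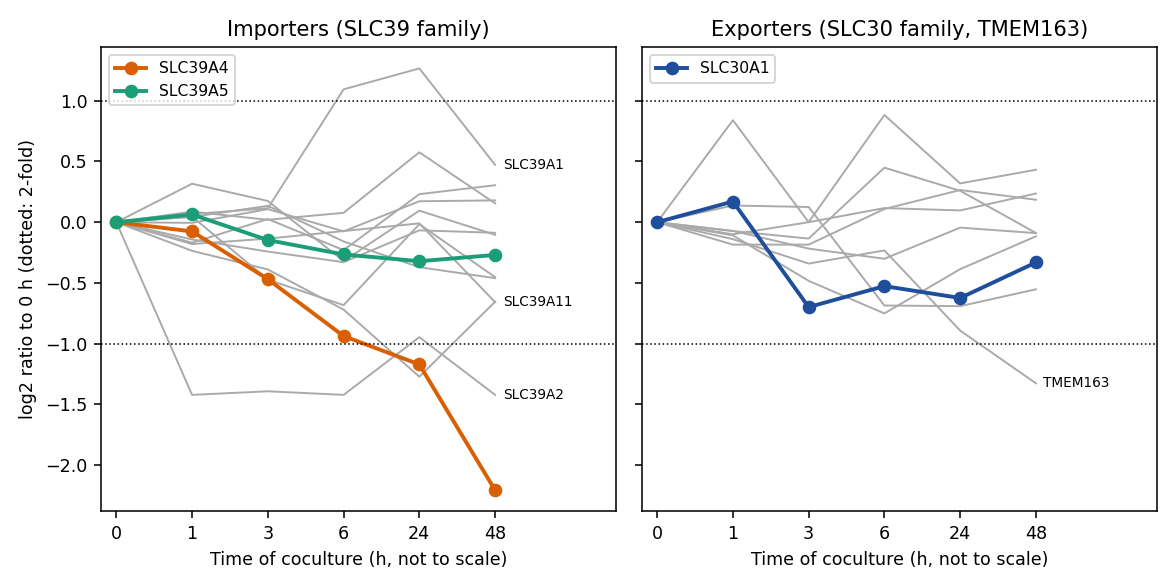
Log2 ratio to 0 h (vertical axis) at each time of coculture (horizontal axis, not to scale) for measured zinc importers (left) and exporters (right), 1 line per gene and 1 array per time, with SLC39A4, SLC39A5 and SLC30A1 in colour and genes past 2-fold (dotted lines) named. SLC39A4 has the lowest value of either family at 48 h, -2.21, and TMEM163 is the lowest exporter at -1.33.

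Metal sensing and copper handling genes were also followed, 13 of 14 measured. The numbers at least 2-fold lower at the 5 later times were 0, 1, 3, 2 and 2, with none higher, and the medians were 0.24, -0.18, -0.36, -0.26 and -0.33. The shares lower among all measured genes are those given with the importers, 1.44% to 6.45%. SOD1, the cytosolic copper and zinc superoxide dismutase, had signals of 1723, 1035, 828, 727, 748 and 732 and was 2.37-fold lower at 6 h. ATOX1, a copper chaperone, had 1368, 1074, 896, 562, 543 and 563 and was 2.52-fold lower at 24 h. Both reached their lower level by 6 h and kept it, while SLC39A4 went lower still at 48 h. STEAP2, a metal reductase, was 2.11-fold lower at 6 h, and CCS, the copper chaperone of SOD1, was lower by a log2 ratio of -0.98 at 48 h. The ACTB ratio was likewise highest at 0 h and lowest at 6 h, and its part in these values was not tested.

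MTF1, the zinc sensor itself and named here outside the rule, had signals of 50.5, 70.1, 70.5, 73.7, 78.7 and 81.3 in 227150_at, with a log2 ratio of 0.69 at 48 h. Its sets 205322_s_at (38.3 at 48 h, against 39.9 at 0 h) and 205323_s_at (42.3 at both) had no such difference at 48 h, and no set passed 2-fold.

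Lists of other stimuli that act on metallothionein genes gave mixed values. Among 8 measured stress and cadmium response genes, the numbers higher at the 5 later times were 0, 1, 2, 0 and 0, with none lower, beside 1.90% to 4.23% higher among all measured genes. SLC7A11, the cystine importer, had signals of 272, 283, 699.9, 708, 281 and 279 and was 2.60-fold higher at 6 h. GCLC, of glutathione synthesis, was 2.17-fold higher at 6 h. SRXN1 stayed under 2-fold. The cochaperone DNAJB1 reached 1.81-fold at 24 h in the set that stands for it, 200666_s_at, with 393, 509, 513, 647, 710.2 and 706 over the 6 times. Its other set, 200664_s_at, lower in mean log2 signal, had 122, 234, 368, 791, 1082 and 827, a far larger difference in the same direction. Of 7 measured glucocorticoid-responsive genes, 1 was higher at 1, 3, 6 and 24 h, and 1 was lower at 1 h. Among all measured genes 1.44% were lower at 1 h, and the shares higher are those just given. The medians of the 7 at the 5 later times were -0.24, 0.08, 0.27, 0 and 0. The gene called higher was DUSP1, a phosphatase of MAP kinases. It had signals of 835, 1865, 1853, 2247, 1849 and 1345 and was past 2-fold at every later time except 48 h. SGK1, a kinase, had signals of 760.4, 1109, 1344, 1088, 825 and 477, under 2-fold throughout, and TSC22D3 was near the floor, at 1.56 to 27.8. ZBTB16, with 17.3 at 1 h, against 45.8 at 0 h, was 2.65-fold lower at 1 h. Metallothionein genes called higher depended on the floor, with none at 16.2 and MT1G and MT1X at 6.38. At 6.38, MT1H and MT1X were also called lower at some times.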

How the data were processed

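The authors deposited 1 intensity per probe set and array, not on a log scale, made with MAS5 per the submitters' processing notes. Its version and scaling target, and any detection calls, are not stated in these sources. The trimmed mean was 93.8 on each array, and no further scaling was applied. Per the labels' protocols, RNA was made into biotin-labelled cRNA.

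Signals under the floor of 16.2 were raised to it and log2 was taken, in Python 3.11.15 with pandas 2.3.3. Probe sets with 1 gene symbol numbered 41097, with 1801 carrying several and 11777 none; 41043 identifiers matched RefSeq, GRCh38.p14. Where a gene had several probe sets, the one of highest mean log2 stood for it. The number of arrays, 1 at each time, limits the precision. Each later array was set against 0 h with no test. The ratios were checked on simulated data, with changes put only into genes brighter than any metallothionein probe set. That check does not cover ratios near the floor.

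The 10 genes and all lists were chosen with earlier results of these data known. Named were the 10 genes, up to 4 genes per list with the largest change, and 5 genes per like course; SLC39A14 and MTF1 were named outside this. Without a probe set of their own were MT1A, MT1B, MT1L, MT1DP, MT1JP, MT1IP, HSPA1A, HSPA1B, PER1, HNF4A, CD68 and CD33. The alternatives, 8 in all, were quantile normalization, a common median, floors at the 30th and 65th percentiles, a pseudocount, a median across each gene's sets, leaving out _x_at and _s_at sets, and the 1 h array as baseline.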

Additional observations from a re-analysis of the deposited data

How the results depend on the processing

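SLC39A4 kept its direction and its side of the 2-fold rule at all 5 times under each alternative that could measure it, with log2 ratios of -2.21 to -2.13 at 48 h and -1.18 to -1.09 at 24 h; leaving out _x_at and _s_at probe sets removes its only set. As reported, the counts of genes past 2-fold at the 5 later times were 2, 2, 1, 2 and 1. They were 0 at 6 h under quantile normalization and a common median. With the floor at the 30th percentile (6.38) they were 4 at 1, 6 and 24 h and 3 at 3 and 48 h. Among these, MT1G was higher at 1, 6 and 24 h and MT1X at 1 and 24 h. MT1H was lower at 3, 6 and 48 h and MT1X at 6 and 48 h. The share of all genes past 2-fold was not taken under the alternatives, so nothing is read from these counts. With the floor at the 65th (37.5) they were 0 for each of 1, 3 and 6 h, and 1 at 24 h. No metallothionein signal was 2-fold above that floor, so none of those genes could be called. With a pseudocount they were 1 for 1 and 3 h but 0 for 6 h, and with the median over probe sets 1 at 1, 3 and 24 h. Without _x_at and _s_at sets 4 genes were left (MT1G, MT1M, SLC30A1 and SLC39A5) and the count was 0 at all times. Against the 1 h array it was 0 for 3 and 6 h, then 1 at 24 h, then 3 at 48 h. No metallothionein gene could be called lower there, as none was 2-fold above the floor at 1 h. The metallothionein median at 6 h was -0.93 with the floor at the 30th percentile and -0.52 with a pseudocount, instead of 0; the floor itself holds dim genes at 0. Among values past 2-fold in either setting, MT2A at 6 h (0.029) and MT1F at 48 h (1.01) turned direction against the 1 h array. Uncalled values that turned include MT1F at 6 h (0.69), MT2A at 24 h (0.72) and MT1G at 3 and 24 h (-0.50 and -0.20) against the 1 h array, and SLC30A1 at 3 h (0.43) with the median over probe sets. Those against the 1 h array follow from the baseline, since each is the log2 ratio to 0 h less the ratio at 1 h. The 0.43 of SLC30A1 is the value of its middle set, 228181_at. Of 360 single-gene values, 298 kept a 2-fold call or, having none, moved by less than the spread between probe sets, 32 moved further with no call in either setting, 17 lost a 2-fold call, 11 gained one and 2 turned direction. The 298 include all 39 values of MT1M, which was under every floor used. Other dim metallothionein values were held at 0 by a floor too, so the tally overstates how firm the results are. No paired analysis was possible because each time has 1 array. The low signals of the metallothionein probe sets limit what can be read from them.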
